A study of Rattus norvegicus with 15 samples.

Results

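Kidney grafts exchanged between rats of different strains (allogeneic, aTX) were compared with grafts exchanged within a strain (syngeneic, sTX) on day 4 after transplantation. The 10 arrays were chosen by their titles, which name 5 aTX and 5 sTX grafts among the 15 arrays of the series, and the other 5 arrays hold native kidneys (ctr). Donors were male Lewis–Brown-Norway (LBN) rats aged 10 to 12 weeks. Their left kidneys went into Lewis (LEW) rats for aTX and into LBN rats for sTX. Each recipient had lost both of its own kidneys, so the graft alone carried renal function, and no immunosuppression was given. Native kidneys came from LBN donors and had no treatment. Recipient strain changed together with graft type, so that their effects cannot be told apart, and a single day was sampled. Total RNA of each kidney was hybridised to 1 Affymetrix Rat Genome 230 2.0 array, which reads transcripts through probe sets, groups of short probes for one transcript.

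A transplanted kidney is injured by surgery and by the time it spends without blood flow whether or not the recipient recognises it as foreign. In an allogeneic graft, recipient T cells also recognise the donor's major histocompatibility complex (MHC) molecules, enter the tissue, release interferon gamma and kill donor cells with perforin and granzymes. Interferon gamma induces the transcription factor Irf1 and raises MHC molecules, the machinery that loads them and the chemokines that draw further T cells. Syngeneic grafts share the surgery and lack the foreign antigens, so the comparison of aTX with sTX asks which changes accompany the allogeneic response rather than surgery.

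The deposited values are MAS5 signals, in arbitrary units that rise with the amount of a transcript, and the tests used their log2. Of 31042 probe sets tested, 4327 (13.9%) were higher and 6857 (22.1%) were lower in aTX than in sTX at an adjusted p under 0.05, the threshold for every call below. The 5 aTX signals lay wholly above or below the 5 sTX signals for 9024 probe sets (29.1%). Counts of called or non-overlapping genes in the lists below are to be read beside these shares. The median log2 difference over all probe sets was -0.18. With each array centred on its median instead, it was -0.06, and the share of calls that were higher was 50.9% rather than 38.7%. Rises were fewer than falls, but more of them were large: 666 probe sets were at least 4-fold higher and 343 at least 4-fold lower, and at 8-fold the counts were 268 and 30.

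The arrays differed in ways that bear on these values. They were split into 2 sets by whether the time in the hybridisation date field of their instrument record was AM or PM. The calendar date was not used, and the sets are called fluidics sessions here. The sTX arrays fell in the second session, together with aTX 1 and aTX 5. The arrays aTX 2, aTX 3 and aTX 4 shared the first session with the native kidneys. Whether the sessions were separate runs of washing and staining was not tested. Within the second session alone, 3590 probe sets were higher and 5120 lower. Of these, 8229 were called the same way as with all arrays and 0 the opposite way. These arrays are part of the main fit, so the agreement is not independent. With aTX 1 and aTX 5 as the only aTX arrays, a lost call can also come from fewer arrays. The source names give Lewis donors for all grafts, LBN recipients for aTX and Lewis recipients for sTX, which conflicts with the strains in the design text that are given above. One further label field calls sTX 4 and sTX 5 allogeneic, against their titles and the graft type in their source names. Their signals for genes of the T-cell receptor complex lay with the other sTX arrays, at medians of 0.91 and 0.58 log2 units above the native mean, where sTX arrays spanned 0.36 to 1.30 and aTX arrays 4.10 to 4.65. For interferon-induced genes the array sTX 1 stood nearest to aTX, with the highest sTX signal for 34 of 39. The 3'/5' signal ratio of actin, a measure of how intact the RNA was, averaged 1.23 ± 0.058 in aTX, 1.51 ± 0.060 in sTX and 1.74 ± 0.17 in ctr (SD, n = 5), with an exact two-sided permutation p of 0.00794 for aTX against sTX, the smallest that 5 against 5 arrays allow, and 0.0159 after adjustment over the 2 ratios. That of Gapdh was 1.04 ± 0.025, 1.10 ± 0.024 and 1.17 ± 0.047, with an exact permutation p of 0.0159. The part of these ratios in the results below was not tested.

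**Figure D1:**
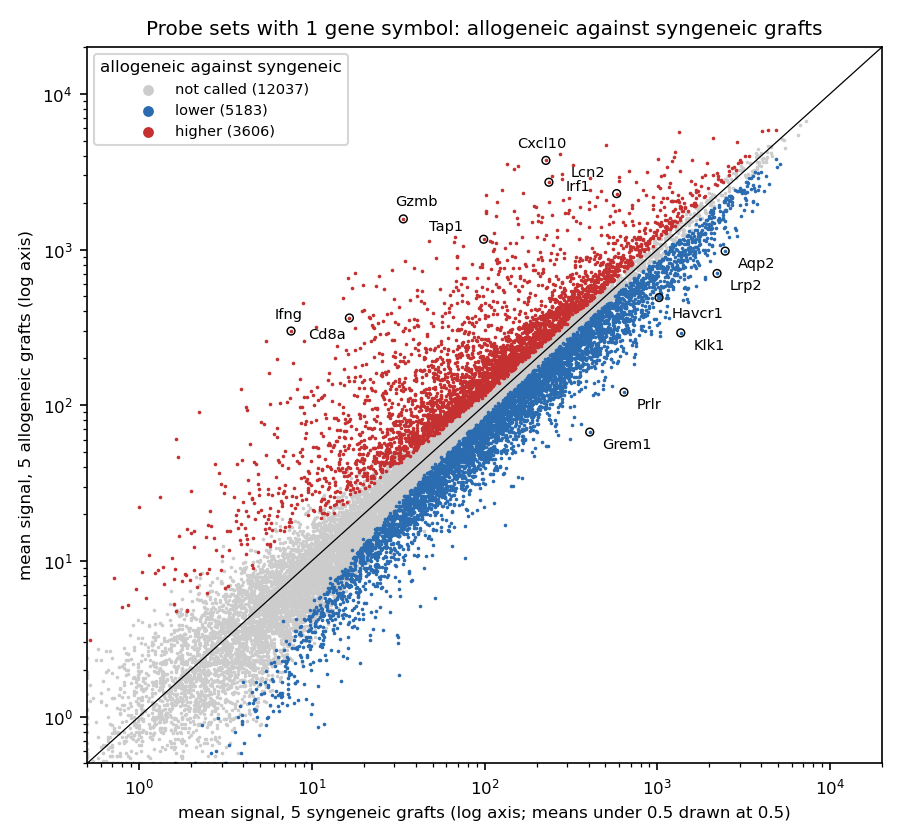
Mean signal of each of the 20826 probe sets with 1 gene symbol in the 5 sTX grafts (x axis) and the 5 aTX grafts (y axis), both in signal units on log axes, coloured by call, with the line of equal signal. Of these, 3606 were called higher and 5183 lower, the higher ones reach farther from the line, and the circled genes are described in the text.

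The 15 largest rises among named genes with a geometric mean signal of at least 100 in the higher group are given first. Cd69, an early marker of lymphocyte activation, read 209.5, 252, 256, 286 and 292 in aTX 1 to 5 and 19, 2.9, 1.6, 1.1 and 2.4 in sTX 1 to 5. The ratio of geometric means was 86.6 (adjusted p = 4.2e-09), and it was 138 without sTX 1, the sTX array with the highest signal. After Cd69 came Cd8a, the co-receptor of killer T cells (85.1-fold), Ccl7, a monocyte-attracting chemokine (56.3-fold), Gzmb, granzyme B (55.5-fold), and C4bpa, an inhibitor of complement (54.3-fold). They were followed by Pla2g2d, a secreted phospholipase (47.3-fold), Xcl1, a chemokine of activated T and natural killer cells (45.8-fold), Ifng, interferon gamma (44.5-fold), and Marchf1, a ligase that sends MHC class II molecules to degradation (43.4-fold). Socs1, an inhibitor of interferon signalling (41.1-fold), Cxcl9, an interferon-induced T-cell chemokine (37.7-fold), Fcnb, a ficolin of myeloid cells (36.6-fold), Gzma, granzyme A (36.2-fold), Cd3e of the T-cell receptor complex (36.1-fold) and Pla2g2a, another secreted phospholipase (33.6-fold), completed the set. The mean sTX signals of these genes, other than Cxcl9, were under 35, where a ratio is poorly fixed. With 16 added to every signal the 15 ratios lay between 7.2 for Marchf1 and 34.4 for Gzmb, and all stayed called higher. Single arrays moved some of them: Cd8a was 129.8-fold higher without sTX 1, C4bpa 35.5-fold without sTX 3, and Xcl1 30.4-fold, Pla2g2d 30.4-fold and Pla2g2a 18.9-fold without sTX 5. Leaving out both arrays with the conflicting label gave 51.2-fold for Cd8a, 34-fold for Ccl7, 23.3-fold for Pla2g2d, 27.4-fold for Xcl1, 24.4-fold for Marchf1, 23.9-fold for Cxcl9, 22.3-fold for Fcnb and 14.9-fold for Pla2g2a.

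The 15 largest falls, chosen by the same rule, were smaller. Fmo2, a flavin-containing monooxygenase, fell from 112, 106, 136, 176 and 131 in sTX 1 to 5 to 26.6, 9.9, 11.6, 19.6 and 17.5 in aTX 1 to 5, and read 162 to 306 in ctr. The difference was 8.12-fold (log2 -3.02 ± 0.22 SE, adjusted p = 1.7e-09), and the rule fixed in advance that the groups did not overlap. Grem1, an antagonist of bone morphogenetic proteins, read 332, 417, 429, 466 and 388 in sTX and 55.6, 62.6, 76.8, 71.2 and 69.7 in aTX. It was above ctr (196) in sTX and below it in aTX, and differed 6.05-fold between the grafts (adjusted p = 5.5e-12). Dgkg, a diacylglycerol kinase, was 5.33-fold lower, the prolactin receptor Prlr 5.32-fold, and Klk1, the tissue kallikrein of the distal nephron, 5.19-fold. Within the second fluidics session Klk1 was 8.86-fold lower. Col11a1, a minor fibrillar collagen, was 4.99-fold lower, Pamr1, a peptidase-like protein first described in muscle regeneration, 4.98-fold, Tmed6, of the p24 family of cargo receptors, 4.87-fold, and Smpx, a small muscle protein, 4.79-fold. Transporters followed, with the organic anion carriers Slc22a13 (4.57-fold) and Slco1a6 (4.41-fold) and the amino acid carrier Slc7a12 (4.36-fold, and 7.08-fold in the second session). Gas2, a cytoskeletal protein of growth-arrested cells (4.3-fold), and the methyltransferases Gnmt (4.24-fold) and Inmt (4.21-fold) were the last of the 15.

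T-cell genes were high in every aTX array and stood far nearer to native levels in sTX. Of 17 measured genes of the T-cell receptor complex and its co-receptors, 16 rose and 0 fell, with a median log2 difference of 3.69. On its brightest probe set, Cd3e, a signalling chain of the receptor, read 249.7, 317, 300.1, 454 and 320.1 in aTX 1 to 5, 37.2, 20.5, 18, 20.3 and 15.7 in sTX 1 to 5 and 13.9 to 18.8 in ctr. The lowest aTX signal was several times the highest sTX signal, which belonged to sTX 1, and the difference was 15.1-fold (log2 3.92 ± 0.20 SE, adjusted p = 7.9e-12). Cd8a read 317, 305, 289, 456 and 449 in aTX and 32.6, 11.9, 11.1, 16.1 and 10.8 in sTX, again with no overlap (23.8-fold, adjusted p = 5.3e-08). Cd3d, another chain of the complex, rose 19.5-fold, the kinase Zap70, which acts just below the receptor, 17.3-fold, and the adhesion receptor Cd2 14.7-fold. The gene not called was Cd4, the co-receptor of helper T cells, at 61.3, 59.2, 51.3, 65.8 and 71.1 in aTX and 66.2, 63.2, 67, 76.4 and 66 in sTX against 28.4 to 47 in ctr. The 2 groups overlapped, and the 95% interval of the log2 difference was -0.46 to 0.18. Rat macrophages also carry Cd4. In whole tissue, more T cells and more RNA per T cell cannot be told apart, and the same holds for every cell type below, in either direction.

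Genes for killing target cells were high in the same arrays. All 10 measured cytotoxic effectors rose, with a median log2 difference of 4.15, the highest of the 57 gene lists examined. Granzyme B (Gzmb), which enters target cells and starts apoptosis, read 1314, 1453, 1381, 1958 and 1757 in aTX 1 to 5 and 79.6, 29, 21.2, 26 and 13.5 in sTX 1 to 5, where sTX 1 again was highest, and 6.6 to 32 in ctr. Perforin (Prf1), which opens the path for granzymes, read 317, 342, 340.5, 582 and 467 in aTX and 24.1, 18.8, 17.5, 19.5 and 20.2 in sTX, a 20.02-fold difference (log2 4.32 ± 0.18 SE, adjusted p = 7.5e-13). Gzmm rose 28.7-fold and the granule protease inhibitor Cst7 18.1-fold. Among aTX arrays, aTX 4 had the highest signal for 8 of the 10 cytotoxic genes and 12 of the 17 T-cell genes, and aTX 1 had the lowest for 13 of the T-cell genes. Of 10 natural killer cell receptors, 9 rose: Klrk1, the activating receptor that T cells also use, 6.53-fold (aTX 288 to 380, sTX 35.7 to 67.2), Klrb1a 5.23-fold and Klrd1 4.35-fold. Genes listed for regulatory T cells rose as well, with 5 of the 6 measured higher and 0 lower. Foxp3 and Tnfrsf18 of this list were not measured. Ctla4, an inhibitory receptor of T cells, was 7.1-fold higher, Il2ra, the interleukin-2 receptor chain of activated and regulatory T cells, 15.5-fold (aTX 48.3 to 90.2, sTX 1.1 to 16), and Tgfb1, a suppressive growth factor, 2.23-fold. Among 11 co-stimulatory and co-inhibitory genes 8 rose, with Cd40, which antigen-presenting cells use to receive T-cell help, 15.9-fold, Icos 5.89-fold and Tnfrsf9 3.58-fold higher. Cd28, the main co-stimulatory receptor, was not called (17.9 ± 5.42 in aTX and 10.2 ± 4.32 in sTX, SD, n = 5).

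Of the cytokine genes called, all but 1 rose. Interferon gamma (Ifng) read 245, 376, 337, 295 and 244 in aTX 1 to 5, 15.6, 8.0, 5.5, 3.6 and 5.2 in sTX 1 to 5 and 1.9 to 7.5 in ctr, with no overlap (log2 5.48 ± 0.42 SE, adjusted p = 2.3e-09). The anti-inflammatory cytokine Il10 rose from 0.6 to 6.1 in sTX to 74.1 to 112 in aTX, and Il1rn, the natural antagonist of interleukin 1, from 0.8 to 2.8 to 46.5 to 69.6. Tnf rose 10.8-fold, to 93 to 146. Il2, the T-cell growth factor, stayed at 2.5 to 11.7 in aTX and 1.3 to 7.9 in sTX and was not called. In all, 14 of 24 measured cytokines rose and 1 fell. The one that fell was Il33, an alarmin stored in the nuclei of stromal and endothelial cells, by 1.01 on the log2 scale (adjusted p = 3.3e-08), named here after its value was seen. Of 18 inhibitors of cytokine signalling 10 rose and 2 fell. Socs1 read 286, 242, 232, 251 and 283 in aTX and 24.2, 3.6, 8.9, 6.6 and 1.9 in sTX, Socs3 rose 3.79-fold, the phosphatase Ptpn6 5.67-fold and Tnfaip3, a brake on NF-kappa-B, 5.66-fold. Nfkbia, which holds NF-kappa-B in the cytoplasm, was 3.48-fold higher in aTX (673 to 749) than in sTX (178 to 236), although the native kidneys, at 484 to 714, were near the aTX range.

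Nearly all interferon-induced genes rose in every aTX array. Of 39 measured, 38 rose with a median log2 difference of 3.16, and the 2 groups did not overlap for 38. The exception, named after its value was seen, was Ifit1, at 7.68 ± 4.98 in aTX and 8.0 ± 4.38 in sTX (SD, n = 5, adjusted p = 0.84). Irf1, the transcription factor that interferon gamma induces first, read 2624, 2974, 2814, 2629 and 2490 in aTX 1 to 5, 419.5, 231, 183, 189 and 156 in sTX 1 to 5 and 65.6 to 177 in ctr (12.2-fold, log2 3.61 ± 0.24 SE, adjusted p = 3.3e-10). The aTX arrays lay close together and far above sTX 1, the highest sTX array. Isg15, a ubiquitin-like protein, rose 17.9-fold, Ubd, another ubiquitin-like protein also called FAT10, 31.9-fold, and the GTPases Gbp4 and Irgm, which act against intracellular microbes, 28-fold and 19.1-fold. Ubd read 458, 121, 84.4, 78 and 37.7 in sTX 1 to 5 and 3167, 4343, 3976, 2934 and 2855 in aTX 1 to 5, and was 20.4-fold higher without sTX 4 and sTX 5. The median of the 39 genes against the native mean was 1.10 in sTX 1, 0.22 to 0.36 in the other 4 sTX arrays and 3.22 to 3.46 in the aTX arrays, so sTX 1 lay above its group and well below aTX.

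Many promoters of these genes hold the short sequences through which interferon is known to act, and 5 are printed to let them be seen. RefSeq windows on the GRCr8 assembly (250 bases before to 50 after the start of transcription) were at hand for 11700 of the 14217 genes measured. The interferon-stimulated response element was searched as GAAANNGAAA and the gamma-activated site as TTCNNNGAA, on both strands. Each window below runs from 250 bases before the start to 10 after it, 5′ to 3′ on the gene's strand, with matches in capitals.
Irf1, chr10:38417685-38417944, plus strand, with a gamma-activated site 142 bases before the start: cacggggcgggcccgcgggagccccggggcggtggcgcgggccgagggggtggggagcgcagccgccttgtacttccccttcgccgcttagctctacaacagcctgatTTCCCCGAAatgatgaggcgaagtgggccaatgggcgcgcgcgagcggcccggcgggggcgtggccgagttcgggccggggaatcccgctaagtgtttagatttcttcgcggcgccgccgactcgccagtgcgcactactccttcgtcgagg
Cxcl10, chr14:15988816-15989075, plus strand, with a response element 243 bases before the start: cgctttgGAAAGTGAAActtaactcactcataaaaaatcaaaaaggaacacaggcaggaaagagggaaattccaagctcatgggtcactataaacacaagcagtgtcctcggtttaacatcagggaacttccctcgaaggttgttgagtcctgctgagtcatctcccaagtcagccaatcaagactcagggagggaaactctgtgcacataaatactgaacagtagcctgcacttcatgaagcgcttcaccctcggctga
Gbp4, chr2:233978236-233978495, plus strand, with a response element 10 bases before the start: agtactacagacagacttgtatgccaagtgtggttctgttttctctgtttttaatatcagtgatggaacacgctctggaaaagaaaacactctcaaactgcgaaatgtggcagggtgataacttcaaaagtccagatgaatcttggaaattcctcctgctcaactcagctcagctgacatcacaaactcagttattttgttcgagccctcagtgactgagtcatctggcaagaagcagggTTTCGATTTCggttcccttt
Tap1, chr20:4668534-4668793, minus strand, with a response element 121 bases and a kappa-B match (GGGNNTTTCC) 55 bases before the start: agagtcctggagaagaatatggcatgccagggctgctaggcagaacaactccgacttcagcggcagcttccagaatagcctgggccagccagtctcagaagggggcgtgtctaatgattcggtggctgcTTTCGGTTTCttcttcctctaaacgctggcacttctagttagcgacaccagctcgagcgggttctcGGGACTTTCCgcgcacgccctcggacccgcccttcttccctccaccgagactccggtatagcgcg
Psmb8, chr20:4657022-4657281, minus strand, with a gamma-activated site 245 bases and a response element 4 bases before the start: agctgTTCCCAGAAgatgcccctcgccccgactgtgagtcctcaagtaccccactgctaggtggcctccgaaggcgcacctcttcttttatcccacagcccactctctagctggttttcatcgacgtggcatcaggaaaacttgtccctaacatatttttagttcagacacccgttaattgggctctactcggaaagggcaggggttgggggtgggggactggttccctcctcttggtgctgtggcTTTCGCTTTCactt

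The response element was present in 349 (2.98%) of the 11700 windows, in 5.90% of the 2474 windows of genes called higher and in 1.88% of the 3457 of genes called lower. Among the 366 genes called at least 4-fold higher it was in 63 (17.2%). Of the 31 interferon-induced genes with a window, 19 (61.3%) held it, as did 6 of 13 MHC class I presentation genes and 3 of 5 inducible proteasome subunits. The gamma-activated site, a shorter motif that can overlap the other, was in 7.10% of all windows, 8.33% of those called higher, 12.6% of those at least 4-fold higher and 38.7% of the interferon-induced genes. A kappa-B match was in 1.74% of all windows and 4.64% of the genes at least 4-fold higher, and the PU.1 motif GAGGAAGT, named for a factor of myeloid and B cells, in 2.45% and 6.56%. The HNF4-type motif CAAAGTCCA was rare, in 44 of all 11700 windows, 17 of the 3457 called lower, 9 of the 944 at least 2-fold lower and 0 of the 366. A match is a string of letters and not a measured binding site, and the windows were not compared by a test.

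Chemokine genes that interferon induces were high in every aTX array. Cxcl10, a ligand of the chemokine receptor Cxcr3 of T cells, read 3759, 4377, 3991, 3392 and 3164 in aTX 1 to 5, 589.8, 201, 125, 127 and 90.2 in sTX 1 to 5 and 55.8 to 295 in ctr (21.1-fold, log2 4.40 ± 0.42 SE, adjusted p = 6.0e-08). No arrays overlapped, and sTX 1 was well above the other sTX arrays. Its relatives Cxcl9 and Cxcl11 rose 28.5-fold and 11.8-fold on their brightest probe sets, and Cxcr3 itself rose 7.67-fold, from 15.7 to 32.9 in sTX to 157 to 248 in aTX. The neutrophil chemokine Cxcl1 was 16.3-fold higher, and 9.75-fold higher without sTX 5 or 8.14-fold without both sTX 4 and sTX 5. Of 14 genes of the CXC, CX3C and XC families 9 rose and 2 fell. Among 16 CC chemokines 8 rose and 3 fell. Ccl2, which draws monocytes, read 1811, 2098, 2028, 1853 and 1709 in aTX and 321, 199, 147, 136 and 158 in sTX (10.4-fold, adjusted p = 8.3e-11). Ccl19, which guides T cells and dendritic cells in lymphoid tissue, rose 10.4-fold (aTX 906 to 1411, sTX 97.6 to 139), and the T-cell and monocyte chemokines Ccl4 and Ccl5 8.22-fold and 6.73-fold. Of 13 chemokine receptors 7 rose and 4 fell. Ccr2, the receptor for Ccl2 and Ccl7, rose 14.1-fold, Ccr1 15.1-fold and Ccr6 17.2-fold, all from sTX signals under 20, and Ccr1 8.39-fold without sTX 4 and sTX 5. Cx3cr1, the fractalkine receptor of resident phagocytes, fell by 1.04 on the log2 scale (adjusted p = 2.6e-04), and was named after its value was seen.

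Antigen presentation rose at each step. In the proteasome, which cuts proteins into peptides, the subunits Psmb8, Psmb9 and Psmb10 that interferon gamma exchanges for the standard ones rose 14.6-fold, 11.5-fold and 8.54-fold, and the activator subunits Psme1 and Psme2 2.38-fold and 4.92-fold. Psmb8 read 2403, 2341, 2306, 2175 and 2246 in aTX 1 to 5, 306, 149, 118, 133 and 135 in sTX 1 to 5 and 57.7 to 164 in ctr. Psmb5, the standard subunit that Psmb8 replaces, read 1441, 1379, 1385, 1435 and 1494 in aTX and 1362, 1152, 1117, 1280 and 1459 in sTX and was not called (adjusted p = 0.082), although median centring, the signal filter and leaving out sTX 5, alone or with sTX 4, each gave a call. The standard subunits were not flat as a group: 23 of 31 rose and 0 fell, by a median of 0.36 on the log2 scale against 3.09 for the 5 inducible ones. Psma5 (2.23-fold), Psmb2 (1.95-fold) and Psma7 (1.92-fold) were among those that rose.

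Peptide transport and loading on class I molecules followed. Tap1, one chain of the peptide transporter, read 1258, 1214, 1165, 1053 and 1129.9 in aTX, 194, 92.8, 63.4, 77 and 66.9 in sTX and 40.6 to 68 in ctr (12.9-fold, log2 3.69 ± 0.22 SE, adjusted p = 6.5e-11), and Tap2, the other chain, rose 8.88-fold. Nlrc5, the transactivator of class I genes, rose 7.38-fold. Of 16 genes of class I presentation 15 rose. The exception, named after its value was seen, was the chaperone Canx (log2 0.09, adjusted p = 0.41). The class I genes RT1-CE5 and RT1-S3 rose 9.87-fold and 7.54-fold. RT1 genes vary between haplotypes, an aTX graft can hold cells of 2 strains, and a probe set can read alleles unequally. Whether these values depend on sequence as well as amount was not tested. B2m, the invariant light chain of class I, rose little, from 3643 to 4765 to 4569.7 to 7325 with overlap (1.34-fold, adjusted p = 0.0059), and was not called in the second session alone. For class II, 12 of 13 genes rose. Ciita, the transactivator of class II genes, read 585, 558, 509, 512 and 532 in aTX and 77.4, 38.9, 25.1, 37.9 and 37.5 in sTX (13.3-fold, adjusted p = 1.7e-11). The peptide exchange genes RT1-DMa and RT1-DMb rose 5.53-fold and 5.05-fold, and the abundant RT1-Da, RT1-Ba and the invariant chain Cd74 3.44-fold, 2.42-fold and 2.48-fold. Cd74 read 4224 to 6076 in aTX, 1488 to 2438 in sTX and 1641 to 1999 in ctr.

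**Figure D2:**
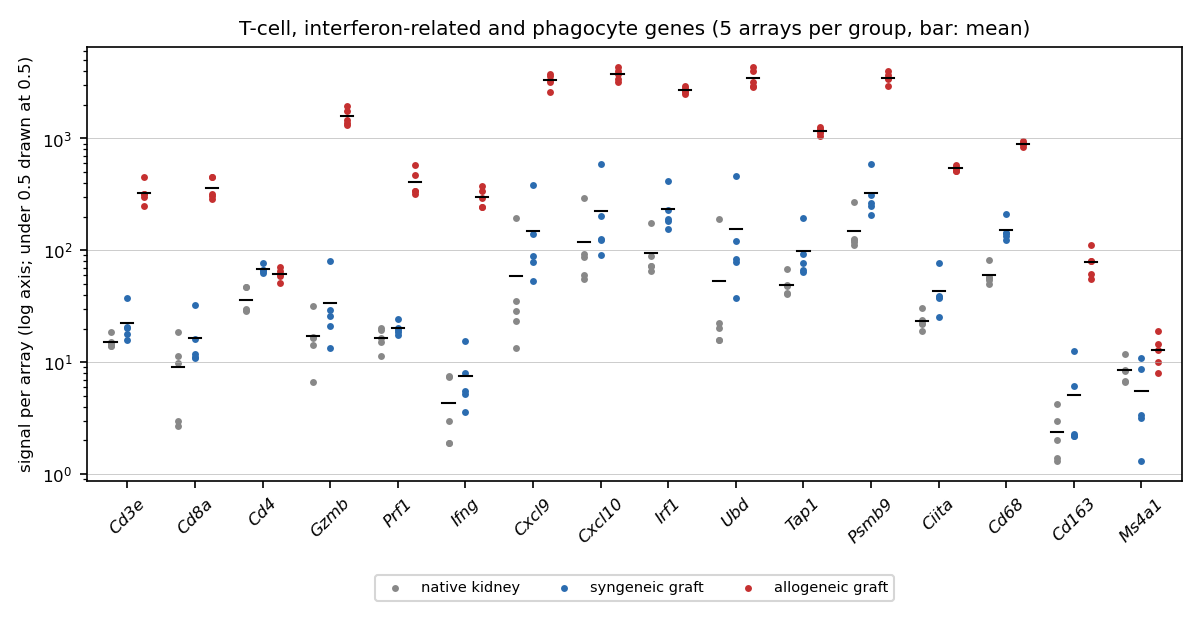
Signal on each of the 15 arrays (log axis) for 16 immune genes, with a bar at the mean of each group of 5. The aTX points lie clear of the sTX points except for Cd4 and Ms4a1, and sTX 1 is the upper sTX point of Gzmb, Cxcl9, Cxcl10, Irf1, Ubd and Tap1.

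Macrophage genes rose broadly. Of 21 measured, 18 rose and 1 fell, with a median log2 difference of 2.69. Cd68, a lysosomal protein of macrophages, read 918, 884, 839, 950.1 and 892 in aTX 1 to 5, 212, 142, 136, 141 and 124 in sTX 1 to 5 and 49.7 to 82 in ctr (6.05-fold, log2 2.60 ± 0.13 SE, adjusted p = 7.8e-12), so that sTX lay between ctr and aTX. Cd163, the haemoglobin scavenger receptor, rose from 2.2 to 12.6 in sTX to 55.3 to 111 in aTX, and Spic, a transcription factor of iron-recycling macrophages, from 0.8 to 8.8 to 89.4 to 107. Ms4a6a and Ms4a7 rose 27.8-fold and 18-fold. Csf1r, the receptor for the growth factor of this lineage, rose only 2.49-fold (205 to 272 to 513 to 604). Adgre1, which encodes the F4/80 antigen, was the gene that fell (log2 -0.48, adjusted p = 0.003), a call lost within the second session, and Mrc1, the mannose receptor, was not called (log2 0.16, adjusted p = 0.65). Both were named after their values were seen.

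Other leukocyte genes moved less or from low signals. Of 9 measured neutrophil genes 6 rose, and Mpo, Elane, Ngp, Ltf, Fpr1 and Retnlg of this list were not measured. Fcnb, a ficolin of myeloid cells, read 676, 817, 762, 545 and 570.1 in aTX and 53.7, 30.4, 16.3, 4.2 and 17.7 in sTX. The granulocyte growth factor receptor Csf3r rose 8.65-fold, and the calprotectin subunits S100a8 and S100a9 8.81-fold and 5.11-fold, with sTX 3 the highest sTX array for both. Without sTX 4 and sTX 5, S100a8 was 5.6-fold higher. Of 13 B-cell and plasma-cell genes 8 rose, 4 of them without overlap of the groups, and 4 were higher in the second session. Over all probe sets, 29.1% had no overlap. Ms4a1, which encodes the B-cell antigen CD20, stayed at 8.0 to 19 in aTX and 1.3 to 10.9 in sTX, overlapping, and its call (adjusted p = 0.017) was lost within the second session. Prdm1 and Pou2af1, regulators of plasma-cell formation and of B cells that activated T cells also express, rose 4.29-fold and 4.03-fold. Of 9 dendritic cell genes 5 rose. Itgax, the integrin chain CD11c, rose 3.45-fold (aTX 206 to 238, sTX 52.9 to 76.6) and Batf3, a factor of cross-presenting dendritic cells, 6.28-fold, while Flt3, their growth factor receptor, was not called (9.18 ± 7.51 against 3.4 ± 3.21, SD, n = 5). Of 12 mast cell and eosinophil genes 1 rose and 0 fell, below the share of all probe sets called.

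Complement components rose more often than they fell. Of 19 components 13 rose and 3 fell. C3, the component on which all pathways meet, read 1765, 2009, 2014, 985 and 1197 in aTX 1 to 5, 258, 169, 108, 121 and 109.7 in sTX 1 to 5 and 64.8 to 112 in ctr (10.6-fold, log2 3.41 ± 0.23 SE, adjusted p = 4.1e-10), with no overlap and a wide spread among aTX arrays. The 3 chains of C1q, which macrophages make, rose 4.43-fold, 5.55-fold and 4.99-fold for C1qa, C1qb and C1qc. C6, of the lytic complex, rose 5.87-fold. Regulators divided evenly, with 3 of 10 higher and 3 lower, or 3 and 1 in the second session. Of all probe sets, 13.9% were called higher and 22.1% lower. The soluble inhibitors C4bpa and Serping1 rose, C4bpa from 12.7, 10.9, 0.5, 3.7 and 0.6 in sTX to 87.3, 213, 248, 96.8 and 162 in aTX and Serping1 2.37-fold. The membrane-bound inhibitors Cd55 and Cd59b, which protect the cell that carries them, fell 1.47-fold and 1.42-fold, and the fluid-phase regulator Clu, clusterin, 1.45-fold. The calls of Cd55 and Clu were lost within the second session.

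Vessel genes went down while the molecules that hold leukocytes went up. Of 19 endothelial genes 15 fell and 1 rose, with a median log2 difference of -0.78. Kdr, the main receptor for vascular endothelial growth factor, read 168, 199, 205, 147 and 167 in aTX 1 to 5, 330.4, 315, 360.4, 350.1 and 349 in sTX 1 to 5 and 366 to 481 in ctr (1.94-fold lower, adjusted p = 8.8e-08). Every aTX signal was below every sTX signal. The arterial transcription factor Sox17 fell 2.85-fold, von Willebrand factor (Vwf) 2.22-fold, the phosphatase Ptprb 2.15-fold and the junction protein Pecam1 1.69-fold. The gene that rose was Ehd3, of glomerular endothelium (log2 0.58, adjusted p = 0.0053), named after its value was seen. Of 11 leukocyte adhesion molecules 7 rose and 0 fell. Vcam1, which activated endothelium and tubule cells display, read 1193, 1477, 1342, 1082 and 945 in aTX and 318, 242, 250.4, 257 and 249 in sTX (4.55-fold, adjusted p = 1.7e-11), and Icam1 rose 4.62-fold. Their partners on leukocytes rose as well, Itgb7 6.82-fold and Itgb2 3.62-fold. Of 10 red cell and platelet genes 3 fell and 0 rose, where 22.1% of all probe sets were called lower. Among the 3 were the platelet genes Pf4 (1.81-fold lower) and Itga2b (1.63-fold). The call of Pf4 was lost with the session as a block. Alas2, the erythroid enzyme of haem synthesis, was not called (30.5 to 42.9 in aTX and 34.6 to 179.5 in sTX).

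Nephron genes fell along the whole tubule. Of 42 transport and uptake genes of the proximal tubule 36 fell and 0 rose, by a median of -0.87 log2 units against -0.18 for all probe sets. The median member stood -0.28 log2 units from ctr in sTX and -1.07 in aTX, both read against the same native kidneys. Lrp2, megalin, which takes up filtered proteins, read 659, 659, 649, 716 and 827 in aTX 1 to 5, 2040.4, 2299, 2400.5, 2124 and 2228 in sTX 1 to 5 and 2278 to 3194 in ctr. The 5 aTX signals were lower than those of every sTX and ctr array, 3.17-fold under sTX (log2 -1.66 ± 0.09 SE, adjusted p = 2.1e-11). The organic anion transporter Slc22a6 fell 3.0-fold, the urate transporter Slc22a12 3.13-fold, the glucose transporter Slc5a2 1.84-fold and the phosphate transporter Slc34a1 1.53-fold (3375 to 4277 to 1994 to 2882). The array aTX 1 had the lowest aTX signal for 32 of the 42 genes.

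In the thick ascending limb and distal convoluted tubule 20 of 23 genes fell and 0 rose (median log2 -0.89). Umod, uromodulin, the main protein of normal urine, read 1702, 2968, 2776, 3134 and 2576 in aTX and 4201, 4519, 3789.5, 4245 and 5452 in sTX (1.71-fold, adjusted p = 1.3e-04). Slc12a1, the sodium-potassium-chloride cotransporter that loop diuretics block, fell 1.95-fold, the potassium channel Kcnj16 2.3-fold and Egf, epidermal growth factor, 3.05-fold. Egf read 317, 674, 698, 818 and 714 in aTX and 1691, 1846, 1706, 1713 and 2503 in sTX, with aTX 1 far below the other aTX arrays and sTX 5 far above the other sTX arrays. Klk1 read 91, 361, 338, 415 and 252 in aTX, 1084, 1111, 1369, 1448 and 1829 in sTX and 1722 to 2348 in ctr (log2 -2.37 ± 0.28 SE, adjusted p = 1.0e-06). Slc12a3, the thiazide-sensitive cotransporter of the distal tubule, changed little, 1.36-fold with overlap (229 to 278 against 212 to 459, adjusted p = 0.034), and was not called in the second session.

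Collecting duct genes fell as well. Of 15 genes of principal cells 13 fell and 0 rose (median log2 -0.83), from a median 0.19 above ctr in sTX. Aqp2, the water channel that vasopressin controls, read 1040.5, 913, 896, 1084 and 951 in aTX, 2454, 2349, 2259, 2456 and 2842 in sTX and 1815 to 2295 in ctr (2.53-fold, log2 -1.34 ± 0.08 SE, adjusted p = 7.9e-11). The groups aTX and sTX did not overlap, and all aTX signals were also below ctr. Aqp3 and Aqp4, which pass water out of the cell, fell 3.05-fold and 1.94-fold, Avpr2, the vasopressin receptor, 2.06-fold, Fxyd4, a regulator of the sodium pump, 2.05-fold, and Nr3c2, the aldosterone receptor, 1.78-fold. Of 12 acid-base genes, mostly of intercalated cells, 10 fell, from a median of -0.20 against ctr in sTX. The proton pump subunits Atp6v0a4, Atp6v1c2 and Atp6v1b1 fell 2.3-fold, 2.36-fold and 2.14-fold, and the anion exchanger Slc4a1, shared with red cells, 2.54-fold. Slc26a4, pendrin of the other intercalated cell type, fell 1.26-fold, a call lost within the second session.

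Podocytes, the cells of the glomerular filter, followed the same direction with 10 of 13 genes lower. The transcription factors Tcf21 and Dach1 fell 2.31-fold and 2.27-fold, the filament protein Nes 2.06-fold and Nphs1, nephrin of the slit diaphragm, 1.52-fold (41.3 to 56.6 to 23.5 to 33.3), the last not called in the second session. The gene that rose was the phosphatase Ptpro (log2 0.75, adjusted p = 1.7e-06), named after its value was seen. Transcription factors that set kidney cell identity fell in 17 of 19 cases and rose in 0. Hnf4a, of the proximal tubule, read 788, 877, 815, 978 and 962 in aTX and 1337, 1482, 1499, 1691 and 1759 in sTX (1.76-fold, adjusted p = 2.7e-07). Esrrg, a nuclear receptor for mitochondrial genes, fell 2.04-fold, Irx1 1.89-fold, Pax2 1.81-fold and Nr1h4, the bile acid receptor, 1.7-fold. Leukocyte signals moved the other way in the same arrays: the summed signal of the 17 T-cell genes was 3219 to 4800.4 in aTX, 336 to 556 in sTX and 222 to 339.7 in ctr, and that of the 21 macrophage genes 21261 to 25196, 5259 to 7552 and 2862 to 3720.4. The arrays are scaled to a common mean, and the part of added leukocyte RNA in the lower nephron signals was not tested.

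**Figure D3:**
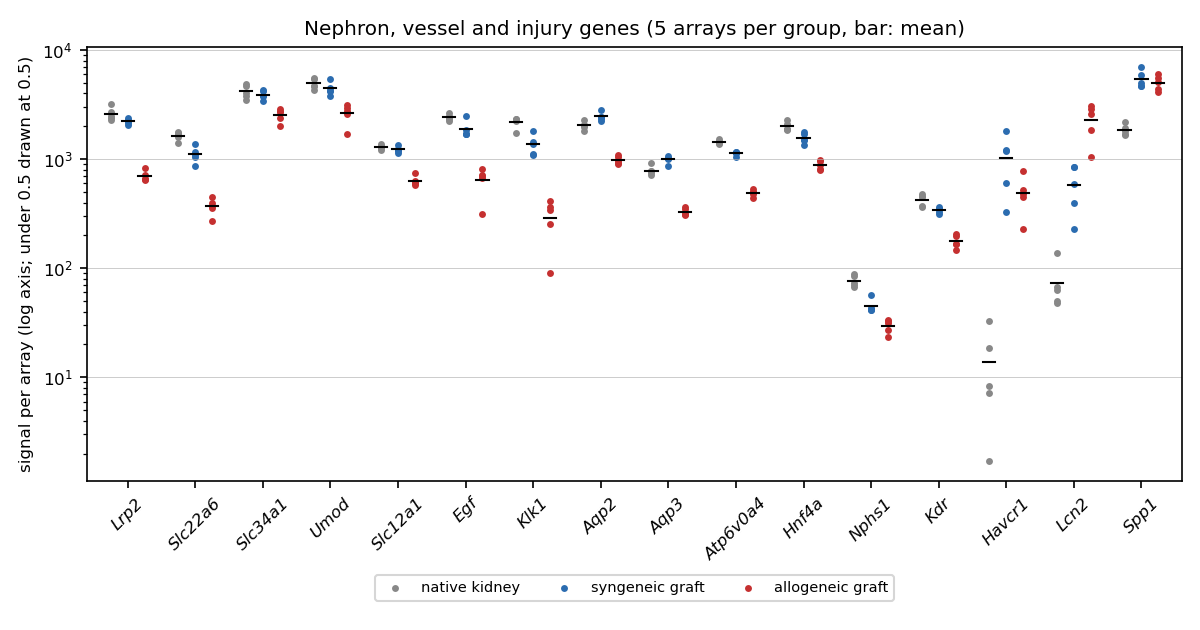
Signal on each of the 15 arrays (log axis) for 16 kidney genes, with a bar at the mean of each group of 5. Tubule genes such as Lrp2, Aqp2 and Klk1 are lower in aTX than in sTX, Havcr1 and Spp1 overlap between the grafts and are above ctr in both, and Lcn2 is higher in aTX.

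Metabolic genes of the tubule fell in the same arrays, by small steps. All 18 of 18 citrate cycle genes fell (median log2 -0.43), as did 16 of 17 genes of mitochondrial fatty acid oxidation (-0.49), 13 of 16 of peroxisomal oxidation (-0.57) and 61 of 74 of the respiratory chain and ATP synthase (-0.38), with 1 respiratory chain gene higher. Hadh, of the fatty acid spiral, read 743, 776, 763, 782 and 815 in aTX and 1346, 1259, 1492, 1516 and 1525 in sTX (1.84-fold, adjusted p = 3.4e-09). Cpt1a, the gate for fatty acids into the mitochondrion, fell 1.56-fold, Acaa2 2.04-fold and Acadm 1.4-fold, and the peroxisomal enzymes Amacr and Ehhadh 2.83-fold and 2.19-fold. In the citrate cycle Ogdh fell 1.68-fold, Dld 1.57-fold and Cs, citrate synthase, 1.19-fold. In complex I Ndufv3 fell 1.84-fold, Ndufa6 1.64-fold and Ndufs1 1.43-fold. Cox4i1 and Atp5f1b, of complex IV and the ATP synthase, were not called (adjusted p = 0.22 and 0.084). The median of all probe sets moved by -0.18. With arrays centred on their medians the counts lower were 13, 13, 12 and 41, with 3 respiratory chain genes higher.

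Sugar and amino acid metabolism moved in both directions. Gluconeogenesis and fructose genes, active in the proximal tubule, fell in 7 of 10 cases: Khk, ketohexokinase, 2.65-fold, Tkfc 2.38-fold, Slc37a4 2.2-fold and Fbp1, fructose bisphosphatase, 1.78-fold (3112 to 3914 to 1609.5 to 2304). Pck1, which starts gluconeogenesis, was not called over all arrays (954, 1753, 1734, 1888 and 1459 in aTX, 1745, 1931, 1996, 1797 and 2200 in sTX, adjusted p = 0.083), and both grafts were below ctr (2681 to 4366). It was called lower in the second session alone, with the session as a block, after quantile normalization and without aTX 4. Glycolysis genes rose in 9 of 16 cases and fell in 1. Hk2, the hexokinase of proliferating and muscle cells, read 88, 67.8, 73.3, 76.1 and 97.8 in aTX and 17.6, 13.5, 17, 12.7 and 9.9 in sTX (5.77-fold, adjusted p = 3.3e-06), the regulatory enzyme Pfkfb3 rose 5.23-fold, the lactate exporter Slc16a3 5.82-fold and Pfkp 2.55-fold. The gene that fell was Pfkm, the muscle-type phosphofructokinase (log2 -0.99, adjusted p = 4.1e-08), named after its value was seen. All 17 genes of branched-chain amino acid breakdown fell, Bckdha 1.98-fold, Mccc2 1.85-fold and Ivd 1.46-fold, with 16 still lower after median centring. Of 30 other amino acid and creatine enzymes 25 fell (median log2 -0.97). Ddc, which makes dopamine in the proximal tubule, fell from 544 to 651 to 163 to 193, and Gatm, the first enzyme of creatine synthesis, 1.99-fold.

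Detoxification genes fell more often than they rose. Of 62 glutathione and conjugation enzymes 35 fell and 1 rose, among them Nat8 (3.27-fold lower), Gstm2 (2.83-fold), Sult1c2 (2.71-fold) and Ggt1, which breaks down glutathione at the brush border (1.49-fold). Of 48 cytochrome P450 genes 19 fell and 4 rose. Cyp2e1 read 312, 458, 488, 539.9 and 508 in aTX and 1197, 1941, 1531, 1463 and 1414 in sTX (3.29-fold, adjusted p = 9.5e-09), and Cyp4b1 and Cyp4f1 fell 3.04-fold and 2.53-fold. Cyp27a1, a sterol hydroxylase also found in macrophages, rose 2.83-fold. Among stress-protective genes 6 of 21 rose and 8 fell, against 4 and 5 in the second session and 8 and 3 after median centring. Hmox1, haem oxygenase, read 740.4, 622, 631, 967 and 914 in aTX, 124, 84.9, 60, 107 and 104 in sTX and 29.6 to 38.8 in ctr (8.17-fold, log2 3.03 ± 0.16 SE, adjusted p = 2.0e-11), and Sod2, the mitochondrial superoxide dismutase, rose 2.93-fold. Prdx6, a peroxidase, fell 1.51-fold.

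Injury markers did not all separate the grafts, and several were high in both. Havcr1, kidney injury molecule 1 of the proximal tubule, read 782, 475, 454, 229 and 518 in aTX 1 to 5, 1206, 1799.8, 1190.5, 599 and 326 in sTX 1 to 5 and 1.7 to 33 in ctr. Both grafts were far above native kidney and overlapped each other, with no call (log2 -0.93, 95% interval -2.15 to 0.28). Spp1, osteopontin, read 4158 to 6024 in aTX and 4632 to 7029 in sTX against 1679 to 2169 in ctr, and was not called either (log2 -0.11, 95% interval -0.36 to 0.15). Lcn2, neutrophil gelatinase-associated lipocalin, read 2576, 3092, 2864, 1048 and 1855 in aTX and 847, 848, 591, 394 and 229.9 in sTX (4.1-fold, log2 2.03 ± 0.35 SE, adjusted p = 8.9e-05), with ctr at 48.2 to 139. Anxa3 rose 5.19-fold, Cd44, the hyaluronan receptor of leukocytes and injured tubules, 4.87-fold and Myc 2.84-fold. Of 27 injury and repair genes 11 rose and 6 fell, and 10 and 2 did so in the second session.

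Cell division genes were high in both grafts, and some were higher in aTX. The median of 34 mitosis genes was 2.50 log2 units above ctr in sTX and 2.84 in aTX, both against the same native kidneys. Between the grafts 13 of them rose and 0 fell, and 9 had groups that did not overlap, where 29.1% of all probe sets had none. Their summed signal overlapped, at 4360.5 to 4748 in aTX and 2854.5 to 4950.5 in sTX. Mki67, which marks dividing cells, read 181, 185, 199.9, 207 and 208 in aTX, 167, 134, 152, 104 and 118 in sTX and 9.3 to 29.8 in ctr. The 2 groups did not overlap, yet the difference was not called (adjusted p = 0.062). It was called under 8 of the 24 other settings, median centring and the second session alone among them. Cdk1, the kinase of mitotic entry, read 224 to 299 and 159 to 322 (adjusted p = 0.36). Aurkb, Ccna2 and Bub1 rose 2.29-fold, 2.16-fold and 1.95-fold, though the call of Bub1 (adjusted p = 0.031) was lost without any 1 of 6 arrays and with the session as a block. Of 30 DNA replication genes 17 rose, Mcm3 2.65-fold (65.2 to 104 to 196 to 223, ctr 12.8 to 16.8), Mcm4 2.15-fold, Mcm2 1.59-fold, Cdt1 2.03-fold and the clamp Pcna 1.36-fold. The array sTX 1 had the highest sTX signal for 31 of the 34 mitosis genes.

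Genes of cell death and of protein-folding stress rose in aTX. Of 26 apoptosis and death genes 22 rose and 1 fell (median log2 1.13), on both sides of the decision. The survival genes Bcl2a1 and Birc3 rose 18-fold and 8.96-fold. The death receptor Fas rose 4.72-fold, Ripk3, the kinase of necroptosis, 8.0-fold and the TNF receptor Tnfrsf1b 10.6-fold. Ripk3 read 572, 562, 577, 505 and 516 in aTX and 100.4, 84.7, 64, 50.8 and 53.4 in sTX, with ctr at 27.1 to 40.6 (adjusted p = 1.3e-11). The one that fell, named after its value was seen, was Bcl2l1, another survival gene (log2 -0.59, adjusted p = 1.4e-04). Of 19 endoplasmic reticulum stress genes 16 rose and 0 fell. Hspa5, the main chaperone of that compartment, read 2711, 2387, 2187, 2045 and 1864 in aTX and 1372, 1351, 1359, 1164 and 1348 in sTX (1.69-fold, adjusted p = 4.4e-05), Creld2 and Sdf2l1 rose 2.72-fold and 2.44-fold, Ddit3 1.53-fold, and Atf3, an early stress factor, 6.55-fold.

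Collagen genes were above native levels in sTX and lower in aTX. Of 41 collagens 23 fell and 0 rose (median log2 -0.67). The median collagen stood 0.76 log2 units above ctr in sTX and 0.05 in aTX. Within the second session 12 were lower. Col8a2, a short-chain collagen, read 99.6, 85.4, 80, 71.1 and 81.9 in aTX 1 to 5, 297, 360.4, 335, 372 and 279 in sTX 1 to 5 and 102 to 183 in ctr (3.93-fold, adjusted p = 3.5e-10), and Col12a1 fell 2.61-fold. Col1a1, the main collagen of scar, read 1103, 522, 523, 493 and 636 in aTX and 1115, 983, 797, 1028 and 1016 in sTX. The array aTX 1 lay above 4 of the 5 sTX arrays, the groups overlapped, and the call (adjusted p = 0.0055) was lost within the second session, which holds aTX 1, as were those of Col3a1 (1.53-fold lower) and Col4a1 (1.25-fold lower), collagens of connective tissue and of basement membrane. Of 26 matrix glycoproteins and proteoglycans 15 fell and 3 rose, against 8 and 3 in the second session. The elastic fibre genes Eln and Fbln5 fell 3.69-fold and 3.15-fold, while Tnc and Vcan, of provisional matrix, rose 1.9-fold and 3.46-fold, Vcan with aTX 1 far above the rest (222, 102, 96.7, 99.6 and 126 in aTX 1 to 5). Fn1, fibronectin, was not called (989.9 ± 133 against 1145 ± 165, SD, n = 5). Of 21 matrix proteases and their inhibitors 5 rose and 9 fell. Timp1, which inhibits these proteases, went from 235 to 486 to 873 to 938 (2.78-fold, adjusted p = 9.7e-07), with ctr at 37.6 to 70. Smooth muscle, pericyte and fibroblast genes fell in 8 of 14 cases, Rgs5 2.31-fold and Pdgfrb 1.6-fold (5 in the second session), and rose in 2, Vim 2.19-fold and Des 2.17-fold. Vimentin (Vim) is also made by leukocytes.

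Genes that set vessel tone and local mediators changed singly. Of 14 renin-angiotensin and kallikrein-kinin genes 7 fell and 1 rose. Besides Klk1, Mme, the peptidase neprilysin of the brush border, fell 2.84-fold (1010.2 to 1222 to 325 to 434) and Agtr1a, the angiotensin receptor, 1.72-fold, while the peptidase Prcp rose 2.55-fold. Of 26 eicosanoid genes 9 rose and 6 fell, the falls near the 22.1% of all probe sets called lower. Pla2g2a read 420.1, 479, 504, 324 and 297 in aTX and 41.1, 28.9, 15.8, 10.2 and 1.2 in sTX. Ptgs2, cyclooxygenase 2, rose 3.12-fold to 70.8 to 81.9, near the native range of 44.3 to 75.4, Tbxas1, thromboxane synthase, rose 3.24-fold, and Hpgd, which inactivates prostaglandins, fell 3.11-fold.

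Enzymes that consume tryptophan and arginine showed opposite moves within each pathway. Of 12 genes listed for tryptophan, arginine and nitric oxide 4 rose and 4 fell. Ido1, which interferon gamma induces and which starts tryptophan breakdown, read 106, 99.2, 109, 130 and 124 in aTX, 8.6, 13.6, 12, 4.1 and 8.4 in sTX and 0.6 to 8.8 in ctr (13.1-fold, log2 3.71 ± 0.54 SE, adjusted p = 1.3e-05). Wars1, which charges the tryptophan transfer RNA, rose 5.81-fold. The later enzymes Kmo and Kynu fell by 1.04 and 1.20 on the log2 scale (adjusted p = 3.9e-07 and 2.3e-10). For arginine, Arg1, arginase of myeloid cells, rose 6.14-fold (22.6 to 39.4 to 152 to 245), and Arg2, the mitochondrial arginase of the tubule, fell by 0.86 (adjusted p = 5.2e-05). Gch1, which makes the cofactor of nitric oxide synthases, rose 9.09-fold, while Nos2, the inducible synthase, was not called over all arrays (7.0, 11.8, 17.2, 13.8 and 4.0 in aTX and 16.9, 15.4, 9.1, 21.3 and 33.8 in sTX, adjusted p = 0.16). It was called lower in the second session alone and with the session as a block. Kmo, Kynu and Arg2 were named after their values were seen.

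Ribosomal and sterol genes moved by small steps. Of 44 cytosolic ribosomal protein genes 15 rose and 0 fell, by a median of 0.14 log2 units, with 2 whose groups did not overlap and 0 called in the second session. After median centring 25 were higher. Rpl3 read 3483 to 4552 in aTX and 3196 to 3603 in sTX. Of 18 genes of cholesterol synthesis and uptake 6 fell and 0 rose, Sc5d 1.83-fold and Fdft1 1.73-fold lower. With median centring 2 of them were higher and 4 lower. Mitochondrial ribosomal protein genes were lower in 28 of 72 cases and higher in 6, a balance that turned to 13 and 16 with median centring. Within the second session 18 were lower and 4 higher.

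**Figure D4:**
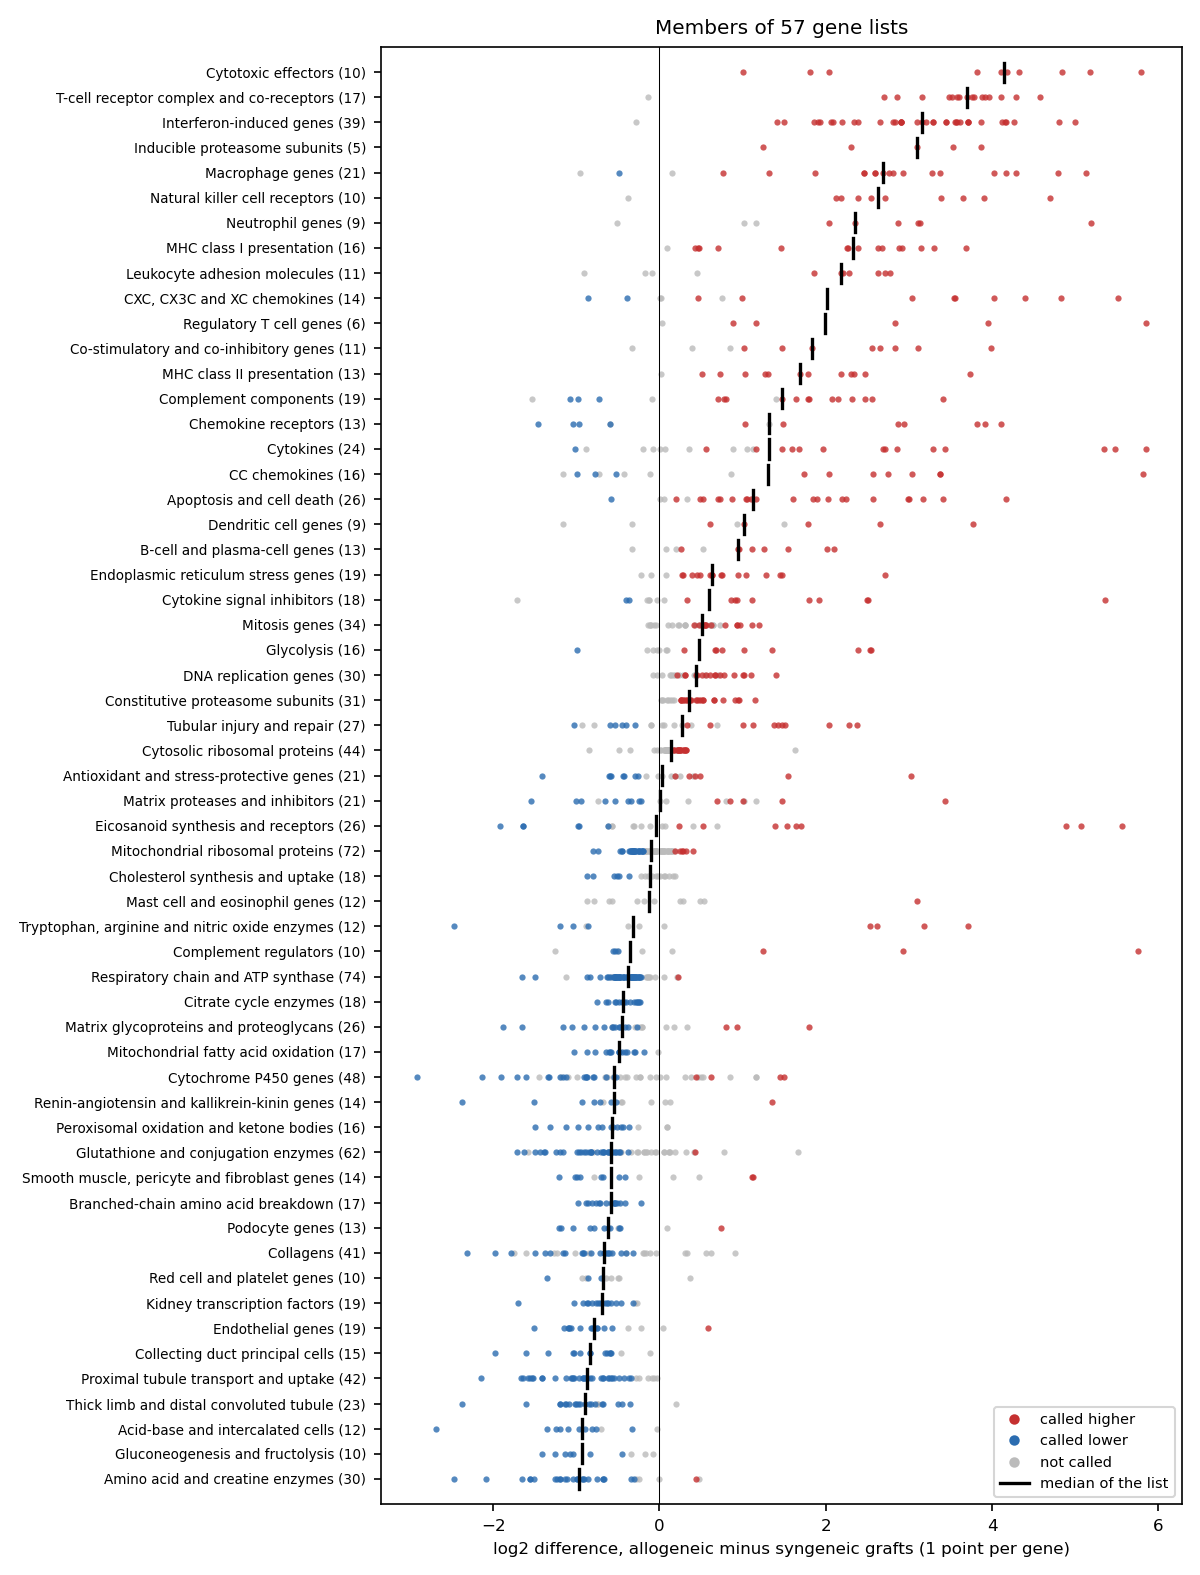
Log2 difference, aTX minus sTX, for each measured gene of the 57 lists (1 point a gene, coloured by call), with a bar at the list's median and the number of measured genes beside its name. List medians run from 4.15 for cytotoxic effectors, with T-cell and interferon-induced genes next, to -0.97 for amino acid and creatine enzymes.

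**Figure D5:**
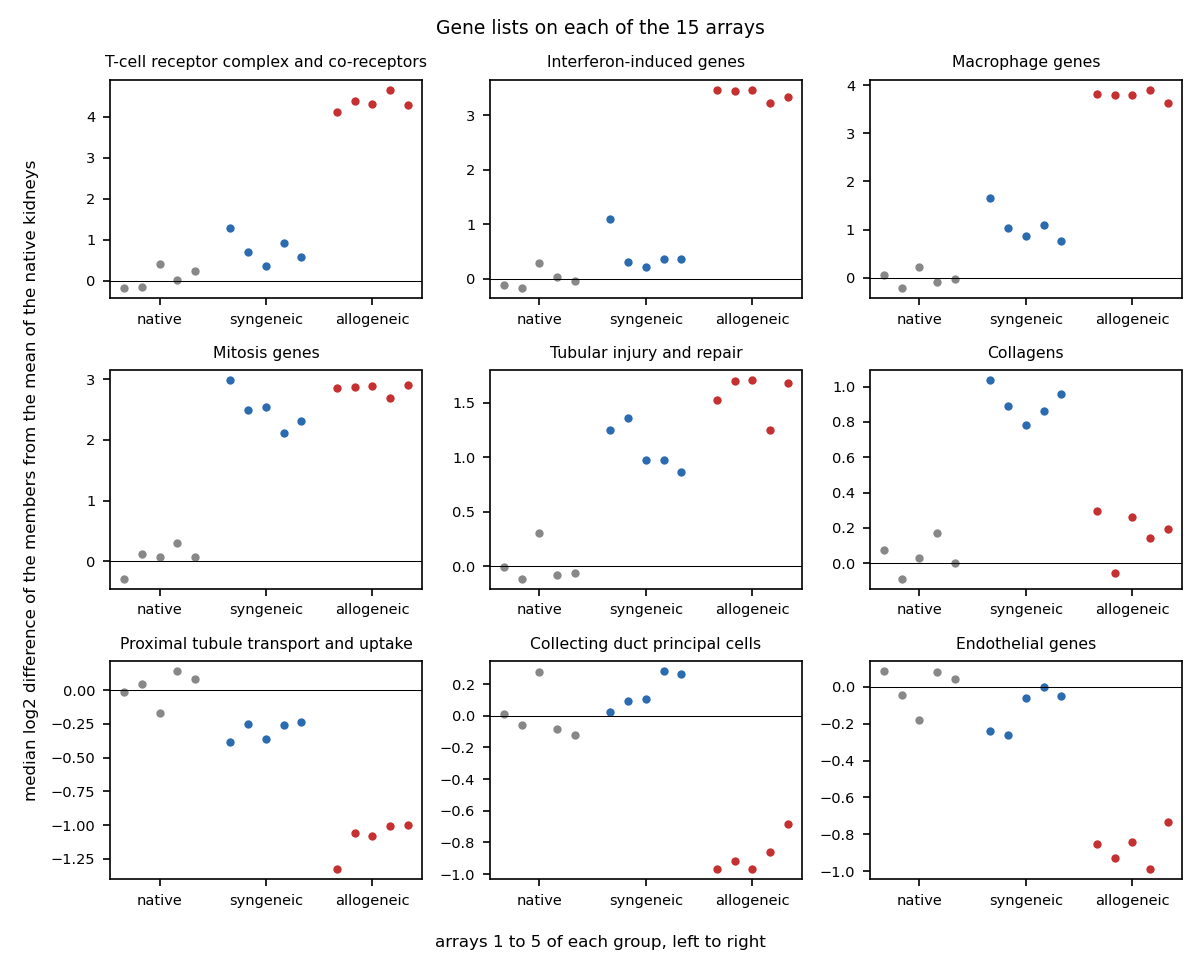
Median log2 difference of the members of 9 lists from the mean of the native kidneys, for each of the 15 arrays in the order 1 to 5 within a group. T-cell genes reach 4.10 to 4.65 in aTX and 0.36 to 1.30 in sTX, whereas mitosis genes stand high in both grafts.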

How the data were processed

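Kidneys of 3 groups (ctr, sTX and aTX, 5 arrays each, 1 kidney an array) were read on day 4 on Affymetrix Rat Genome 230 2.0 arrays. The authors hybridised and scanned them with GCOS, masked defects in GeneData Refiner and condensed probe intensities to MAS5 signals. Deposited values are linear MAS5 signals with a mean of 100 on every array once 2% of probe sets are trimmed at each end. This differs from the mean given in the methods, and whether the values carry the masking could not be told. Labels name MAS5 without a version, and 0 columns belong to other samples. The p-values set a difference between groups against the spread of arrays within groups, pooled over all 15 arrays. With 1 array a kidney, variation between animals and between measurements is not separated. From the deposited instrument records, only the time of day (AM or PM) that set the fluidics session was used.

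The 57 control probe sets were left out and 31042 kept. The 54 signals of 0 were set to 0.05 before log2. All 15 arrays entered 1 linear model by limma 3.58.1 (R 4.3.3, empirical Bayes with an intensity trend), with aTX minus sTX as the contrast. P-values were adjusted by Benjamini-Hochberg over the 31042 probe sets and called under 0.05. Folds are ratios of geometric means, ± is SD for signals and SE for log2 differences, and no array was dropped or imputed. Detection calls were not used here, so no lower bound stands for a signal near 0. The platform annotation gave 1 symbol to 20826 probe sets, several to 436 and none to 9780. Genes in lists were read by their brightest probe set, and the 30 leading genes by the probe set that changed most. Named were the 15 largest rises and 15 largest falls whose higher group reached a geometric mean signal of 100 and whose groups did not overlap, and, from each of 57 lists, key genes and up to 3 further called genes reaching 50. Some were left out for length, and genes outside the rule are marked in the text. The comparison, its lists and its tests were chosen with earlier results of these data known. The script was tested on simulated data. Alternatives covered centring, quantile normalization, an offset or floor of 16, a signal filter, the samples and variance model, the methods' two-sample test, the fluidics session, the replicate number as a block, mean probe sets, conflicting labels and single arrays. Promoter sequences are RefSeq's on GRCr8.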

Additional observations from a re-analysis of the deposited data

Results flagged for a closer look

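In 51 of 530 groups of 5 arrays (265 genes, each in aTX and in sTX), 1 array lay farther from the other 4 than Dixon's 95% criterion allows, where chance gives about 1 in 20. Of these, 25 were high signals of sTX 1 and 12 belonged to aTX 1.

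Array sTX 1 stood above the other syngeneic grafts for genes of interferon response, antigen presentation and lymphocytes. Among chemokines these were Cxcl9 (382.1), Cxcl10 (589.8), Cxcl11 (1266.8), Ccl19 (138.8) and Xcl1 (54.4). Among interferon-induced and presentation genes they were Irf1 (419.5), Irgm (242.0), Isg15 (192.9), Ubd (458.4), Psmb8 (305.8), Psmb9 (589.4), Tap1 (194.0), RT1-CE5 (313.3) and Ciita (77.4). Leukocyte genes were Cd3e (37.2), Cd8a (32.6), Cd69 (19.0), Gzmb (79.6), Gzmm (11.5), Cst7 (82.9), Cd68 (212.2), Ms4a7 (94.1) and Ptpn6 (107.1), and Birc3 (64.2) and Vcam1 (318.5) completed the set. For each of these genes the sTX 1 signal was still below every aTX signal.

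Array aTX 1 was the lowest allogeneic graft for the tubule genes Egf (317.1), Mme (324.9), Ddc (163.1), Ehhadh (212.6), Kmo (202.5) and Kynu (133.7). It was the highest for Col1a1 (1102.9), Vcan (222.1), Rgs5 (55.5), Sdf2l1 (753.9), Gch1 (222.5) and the chemokine receptor Ccr1 (141.5). Single genes stood apart in aTX 2 (Hpgd, low at 56.6) and aTX 4 (Ctla4, high at 78.3).

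Array sTX 5 was high for Egf (2502.6), Ndufa6 (1539.5), Slco1a6 (1038.1), Nphs1 (56.6) and Flt3 (9.0) and low for Mrc1 (49.8). Array sTX 4 was high for Cd4 (76.4) and low for Hspa5 (1163.9), sTX 2 was high for Rgs5 (104.4) and Tbxas1 (74.5), and sTX 3 was high for S100a8 (31.4) and S100a9 (72.6). All of these arrays entered the fit, and what set them apart was not tested.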

How the results depend on the processing

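Under every alternative run, probe sets lower in aTX outnumbered those higher except with arrays centred on their medians (5427 higher, 5242 lower). Testing 8727 probe sets alone, those whose mean signal reached 100, left 2808 higher and 3316 lower, and the methods' two-sample test at an unadjusted p under 0.001 left 2838 and 3447. The remaining settings gave 3529 to 4586 higher and 5060 to 7034 lower. Leaving out 1 array at a time gave 4088 to 4243 higher and 6329 to 6651 lower. Counting aTX 2 and aTX 3, the most alike aTX pair, as 1 array, a setting chosen after seeing the data, gave 4109 and 6505. Replicate numbers did not pair the arrays: deviations of like-numbered aTX and sTX arrays correlated between -0.007 and 0.020 across probe sets, and with the replicate block 4304 and 6733 were called, with no call of a named gene changed.

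Of the 265 genes named in the comparison, the log2 difference changed sign or vanished for 5 that were not called. It vanished for Il2 (-0.0000) with signals under 16 set to 16, as all its aTX and sTX signals lay below 16. Spp1 read 0.013 after median centring, and Canx -0.0009 with the fluidics session as a block or in the second session alone. Ifit1 read 0.93 in both of these and 0.50 without aTX 4, and Mrc1 -0.082 without sTX 4 and sTX 5. With 1 array left out at a time, Ifit1 ranged from -0.85 to 0.50 and Mrc1 from -0.067 (without sTX 5) to 0.26. With the session as a block, calls were lost for 14 named genes (Adgre1, B2m, Bub1, Cd55, Clu, Col1a1, Col3a1, Col4a1, Ehd3, Nphs1, Pf4, Rpl3, Slc12a3 and Slc26a4), and with median centring for Col4a1, Cs, Slc12a3 and Slc26a4. Calls lost when 1 array was left out were those of Bub1, Rpl3, Slc12a3, Slc26a4 and Ms4a1. The second session alone lost 12. Most were lost under the methods' two-sample test at an unadjusted p under 0.001, with 26 named genes. Among them were Lcn2, Cxcl1, Umod, Vwf, Pecam1, S100a8, S100a9, Pax2, Ccna2 and Bcl2l1. Of genes not called, 9 gained a call under at least 1 setting: Mki67 under 8, Atp5f1b under 5, Alas2, Flt3, Pck1 and Psmb5 under 4 each, Fn1 under 3, Nos2 under 2 (the session as a block and the second session alone) and Cox4i1 under 1. Medians of 8 of the 57 lists took the other sign under at least 1 setting: stress-protective, chemokine receptor, cholesterol, eicosanoid, mast cell, matrix protease, mitochondrial ribosomal and injury genes. The cause of these changes was not tested. The session as a block and the second session alone gave the same median log2 difference over all probe sets (-0.15). They are not separate evidence. Having 5 arrays a group limits the precision, and ratios of low signals depend on the offset.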

Other observations

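Among 4525 genes read by more than 1 probe set, 37 had 1 probe set called higher and another called lower in aTX than in sTX, and a pair of them, chosen after their values were seen, were clear on both sides. Ppp3cb encodes a catalytic subunit of calcineurin, the phosphatase that ciclosporin and tacrolimus inhibit in T cells. One of its probe sets read 256, 213, 267, 217 and 246 in aTX 1 to 5 and 141, 160, 152, 134.5 and 132 in sTX 1 to 5, with ctr at 120.3 to 143. This was a rise of 1.66-fold (log2 0.73 ± 0.08 SE, adjusted p = 5.0e-07). Another read 149, 142, 149, 146 and 150.1 in aTX and 189, 214, 219.5, 184.5 and 196 in sTX, a fall of 1.36-fold (adjusted p = 2.7e-05). Hnrnpa2b1, a splicing factor, rose 1.46-fold on one probe set (834 to 960.3 in aTX, 578 to 735 in sTX, adjusted p = 1.4e-05) and fell 1.42-fold on another (105 to 115 in aTX, 142 to 182 in sTX, adjusted p = 2.1e-05). In all 4 cases the groups did not overlap, and each call was kept under all 24 other settings. The probe sets' sequences were not used here, so which transcript each one reads was not tested.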
